A study of Mus musculus with 24 samples.

Results

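The comparison described here is epigallocatechin gallate (EGCG) against control in white adipose cells on day 4 of differentiation. Its members are 6 of the 24 libraries of the series, 3 with EGCG and 3 controls, chosen by their labels of tissue, day and treatment and not by any measured value. The source was the stromal vascular fraction (SVF), a mixture of cells that includes precursors of fat cells, and here it came from white adipose tissue (WAT) of the inguinal depot of 6-week-old C57BL/6 mice, with no genetic change in any group. The cells had been grown to near confluence and kept for 4 days in an induction medium with insulin, dexamethasone and 3-isobutyl-methylxanthine, so day 4 is the end of induction. EGCG was added to the medium of one group and DMSO to that of the other, and all groups shared the same induction mixture. The labels do not give the dose of EGCG, the time at which it was added or the sex of the mice. They also do not say whether replicates came from separate isolations, so p-values measure only the spread between these samples, which may be technical. The other groups of the series, used only where the text says so, are WAT cells on day 8, after a further stage with insulin and T3, and interscapular brown adipose tissue (BAT) cells on day 4 and day 8, each with EGCG or control (3 libraries a group). SVF cells are not a pure cell type.

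As background, adipogenesis runs as a cascade of transcription factors. Hormones in the induction medium first raise C/EBPβ and C/EBPδ, these turn on PPARγ and C/EBPα, and those switch on the genes of lipid storage, lipolysis, insulin response and secreted adipokines. EGCG is the main catechin of green tea, a polyphenol that binds metals and oxidizes readily in culture medium. NRF2 is the transcription factor that answers electrophiles and oxidants, and HIF is the one that is stabilized when the iron- and oxygen-dependent prolyl hydroxylases slow down.

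RNA was measured as FPKM, the reads on a gene per kilobase of its length scaled to a common number of reads on genes for each library. Replicates 1 and 2 lie in one table and replicate 3 in another that was made separately. Each FPKM multiplied by gene length gave back whole reads, and by this the depth on genes was 42888138 to 51319195 reads in the 4 tested libraries (replicates 1 and 2) and 16392420 and 23449134 reads in the 2 of replicate 3. Levels cannot be set across the 2 tables: Gapdh was at 26.0 and 26.5 FPKM in control replicates 1 and 2 and at 793 FPKM in control replicate 3. Tests therefore used replicates 1 and 2, and replicate 3 gives a direction against its own control. Throughout, values are listed in the order of replicates 1, 2 and 3. Mitochondrial genes took 2.28%, 2.12% and 2.16% of reads in the controls and 1.72%, 1.79% and 1.43% with EGCG, lower with EGCG within each table. As for the cell type label, the controls held the adipocyte markers Fabp4 (1909, 1669 and 2214 FPKM) and Adipoq (131, 110.2 and 143) beside the precursor marker Pdgfra (125, 130.3 and 117), while Dpp4, a marker of early precursors, stayed below 0.1 FPKM in every library.

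Which genes differ between white cells with EGCG and their controls on day 4? Large falls were seen in genes of the fat cell, among them Car3, Thrsp, Adipoq and Plin1, and large rises in Ndufa4l2, H2-Ab1, Il1rl1 and Slc16a3. Of 14095 genes tested in limma, 7567 passed an adjusted p of 0.05 (53.7%), of which 4853 were higher (34.4% of the genes tested) and 2714 lower (19.3%) with EGCG. Most of these changes were small. A change of at least 2-fold, on the log2(FPKM + 1) scale used for all fold changes here, was reached by 525 higher genes (3.72%) and 431 lower genes (3.06%). At 2-fold the balance depended on the scaling, with 409 higher and 549 lower genes when libraries were scaled by the median of gene-wise ratios (median-ratio scaling) and 428 and 510 with quantile normalization. Without such scaling, 59 genes were at least 4-fold higher and 100 at least 4-fold lower, and 8 and 32 passed 8-fold. In replicate 3, which took no part in the test, 56 of the 59 and 98 of the 100 again differed at least 2-fold in the same direction, against 970 of all 14095 genes that did so. Of the genes called at 2-fold, 378 of the 525 higher and 360 of the 431 lower ones did so. Their direction was kept by 471 (89.7%) and 405 (94.0%), beside 81.7% of all genes tested. Of all genes called higher and lower, 95.0% and 95.8% kept it. The median-ratio scaling shifted the median over all genes by -0.11 on the log2 scale, from 0.087 to -0.023, and 3343 genes were called higher and 4131 lower. Quantile normalization gave 3769 and 3416. Small changes are therefore best read against that shift. Of the 7567 calls, 6056 were made in the same direction under the median-ratio scaling and 6422 under quantile normalization, with 0 and 1 in the opposite direction.

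**Figure D1:**
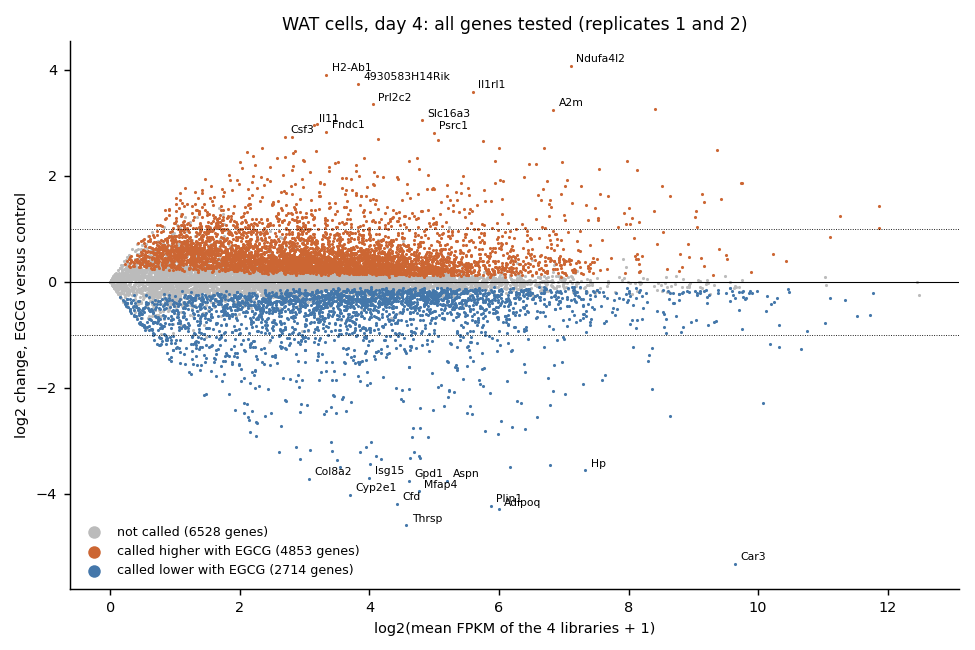
Log2 change with EGCG in WAT cells on day 4 (y axis) against the mean level of the 4 libraries of replicates 1 and 2 on a log2(FPKM + 1) scale (x axis), 1 point for each of 14095 genes tested, orange for 4853 genes called higher and blue for 2714 called lower; dotted lines mark a 2-fold change. The 23 labelled genes come from the 12 highest and 12 lowest of the ranking, with Car3 lowest at -5.32 and Ndufa4l2 highest at 4.08 on the log2(FPKM + 1) scale.

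The genes ranked lowest were mostly products of mature fat cells. They were taken from 2004 called genes that were lower in all replicates and reached a mean of 5 FPKM in the controls, and the ranking by size is a description. The order depends on the pseudocount of 1, which shrinks changes of genes that are low in one group: with 0.1, Col8a2 was lowest of the named genes (-5.72), before Thrsp (-5.51), Car3 (-5.35) and Cyp2e1 (-5.30), and H2-Ab1 (5.67) and 4930583H14Rik (4.58) were above Ndufa4l2 (4.16). Car3 (ENSMUSG00000027559.4, chromosome 3, 14863538 to 14872351) encodes a carbonic anhydrase that is one of the most abundant proteins of adipocytes, and it had 1690.0, 1437 and 1657 FPKM in the controls and 35.1, 41.3 and 25.2 FPKM with EGCG (log2 change -5.32 ± 0.163 SE, adjusted p 1.01e-09). A promoter of lipogenic gene expression, Thrsp (ENSMUSG00000035686.7, chromosome 7, 104561448 to 104566240), had 51.1, 38.2 and 61.9 FPKM in the controls and 0.817, 0.924 and 0.668 FPKM with EGCG (log2 change -4.60 ± 0.309 SE, adjusted p 2.87e-07). Adipoq (ENSMUSG00000022878.5, chromosome 16, 23146609 to 23158101), the adipokine adiponectin, had 131, 110.2 and 143 FPKM in the controls and 5.04, 5.31 and 4.29 FPKM with EGCG (log2 change -4.30 ± 0.0948 SE, adjusted p 1.58e-10). In these 3 genes the controls were far above the EGCG libraries within each table.

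Plin1 (ENSMUSG00000030546.7, chromosome 7, 86866050 to 86877662), the perilipin that coats lipid droplets, fell from 116, 105 and 116 FPKM to 4.93, 4.99 and 4.94 FPKM (log2 change -4.22 ± 0.139 SE, adjusted p 1.24e-09). Cfd (ENSMUSG00000061780.5, chromosome 10, 79353598 to 79355401), the complement protease adipsin, fell from 43.9, 35.8 and 60.7 FPKM to 1.23, 1.23 and 1.25 FPKM (log2 change -4.19 ± 0.130 SE, adjusted p 1.04e-09). Cyp2e1 (ENSMUSG00000025479.7, chromosome 7, 147949638 to 147960874), a cytochrome P450, had control values that spread from 19.2 to 42.3 FPKM and was at 0.558, 0.423 and 0.443 FPKM with EGCG (log2 change -4.02 ± 0.330 SE, adjusted p 1.43e-06). The EGCG libraries thus sat close together for Plin1 and Cfd, whereas the spread for Cyp2e1 lay among its controls. Gpd1 (ENSMUSG00000023019.6, chromosome 15, 99547946 to 99555436), which makes glycerol 3-phosphate for triglycerides, changed by -3.75 on the log2 scale, and Hp (ENSMUSG00000031722.9, chromosome 8, 112099030 to 112103072), the secreted protein haptoglobin, by -3.56.

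The remaining genes of the lower ranks belong to the matrix and to the interferon response. Mfap4 (ENSMUSG00000042436.6, chromosome 11, 61298933 to 61302402), a microfibril protein, had 53.2, 46.9 and 45.0 FPKM in the controls and 1.83, 2.81 and 2.22 FPKM with EGCG (log2 change -3.96 ± 0.158 SE, adjusted p 4.76e-09). Aspn (ENSMUSG00000021388.6, chromosome 13, 49639812 to 49662926), the small leucine-rich proteoglycan asporin, had 69.5, 65.6 and 58.8 FPKM in the controls and 3.94, 4.21 and 3.45 FPKM with EGCG (log2 change -3.75 ± 0.120 SE, adjusted p 1.06e-09). Col8a2 (ENSMUSG00000056174.7, chromosome 4, 125964037 to 125991574), a short-chain collagen, had 16.1, 13.1 and 11.9 FPKM in the controls and 0.167, 0.188 and 0.207 FPKM with EGCG (log2 change -3.72 ± 0.153 SE, adjusted p 6.19e-09). Isg15 (ENSMUSG00000035692.6, chromosome 4, 155573533 to 155574927), a ubiquitin-like protein induced by interferon, had 25.8, 31.6 and 29.9 FPKM in the controls and 1.35, 1.19 and 1.41 FPKM with EGCG (log2 change -3.70 ± 0.156 SE, adjusted p 7.37e-09). In all 4 the groups stood apart in each replicate, which the ranking rule required. Mfap4 overlaps Mapk7, Aspn overlaps Cenpp, Gpd1 overlaps Gm16537 and Col8a2 overlaps AL606976.2 in the annotation, and how reads of the overlaps were assigned is not known for these tables.

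The highest ranks, from 3202 called genes that met the same rule, held a mitochondrial protein, a lactate transporter, several secreted factors and receptors. Ndufa4l2 (ENSMUSG00000040280.9, chromosome 10, 126951995 to 126954208), a known HIF target that lowers complex I activity, had 13.4, 15.3 and 19.3 FPKM in the controls and 285, 234 and 301 FPKM with EGCG (log2 change 4.08 ± 0.155 SE, adjusted p 3.43e-09). Il1rl1 (ENSMUSG00000026069.9, chromosome 1, 40486415 to 40522260), the receptor of interleukin 33, had 6.21, 6.60 and 5.64 FPKM in the controls and 95.1, 81.4 and 105 FPKM with EGCG (log2 change 3.59 ± 0.191 SE, adjusted p 4.56e-08). In both genes the EGCG libraries were far above the controls within each table. Slc16a3 (ENSMUSG00000025161.10, chromosome 11, 120809794 to 120822182), the lactate exporter MCT4, had 5.06, 5.07 and 5.69 FPKM in the controls and 51.2, 47.2 and 59.8 FPKM with EGCG (log2 change 3.05 ± 0.123 SE, adjusted p 5.34e-09). A2m (ENSMUSG00000030111.8, chromosome 6, 121586191 to 121629255), the broad protease inhibitor alpha-2-macroglobulin, had 19.5, 22.3 and 22.8 FPKM in the controls and 215, 197 and 209 FPKM with EGCG (log2 change 3.24 ± 0.244 SE, adjusted p 7.48e-07). In the annotation, Slc16a3 overlaps Csnk1d and Ndufa4l2 overlaps Shmt2.

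Several other genes of the upper ranks were low in the controls. H2-Ab1 (ENSMUSG00000073421.4, chromosome 17, 34400154 to 34406363), a chain of an MHC class II molecule, had 0.290, 0.212 and 0.403 FPKM in the controls and 20.9, 15.00 and 22.4 FPKM with EGCG (log2 change 3.90 ± 0.287 SE, adjusted p 5.97e-07). The clone-named gene 4930583H14Rik (ENSMUSG00000037161.7, chromosome 3, 51192337 to 51200660) had 0.874, 1.05 and 0.883 FPKM in the controls and 28.0, 22.5 and 28.4 FPKM with EGCG (log2 change 3.74 ± 0.260 SE, adjusted p 3.77e-07). The growth-related hormone proliferin, Prl2c2 (ENSMUSG00000079092.2, chromosome 13, 13088393 to 13097659), had 1.44, 2.50 and 2.08 FPKM in the controls and 34.2, 24.2 and 36.8 FPKM with EGCG (log2 change 3.35 ± 0.193 SE, adjusted p 8.88e-08), and close copies of it may share its reads. These genes were low in each of the 3 controls. Il11 (ENSMUSG00000004371.7, chromosome 7, 4724669 to 4734460), a cytokine of the interleukin 6 family, had 0.916, 1.11 and 0.437 FPKM in the controls and 16.3, 13.1 and 14.7 FPKM with EGCG (log2 change 2.95 ± 0.225 SE, adjusted p 8.18e-07). Csf3 (ENSMUSG00000038067.2, chromosome 11, 98562577 to 98564943), the granulocyte colony-stimulating factor, had 0.510, 0.809 and 0.604 FPKM in the controls and 12.7, 7.88 and 15.2 FPKM with EGCG (log2 change 2.74 ± 0.208 SE, adjusted p 7.99e-07). Both cytokines stayed far below A2m with EGCG, so they were low in level although high in fold. Fndc1 (ENSMUSG00000071984.4, chromosome 17, 7931434 to 8020167), a protein with fibronectin type III domains, changed by 2.83 and was at 1.31, 1.67 and 1.69 FPKM in the controls. Psrc1 (ENSMUSG00000068744.6, chromosome 3, 108186757 to 108191149), which acts on the mitotic spindle, was not low in the controls (6.86, 6.98 and 7.23 FPKM) and changed by 2.81 on the log2 scale.

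**Figure D2:**
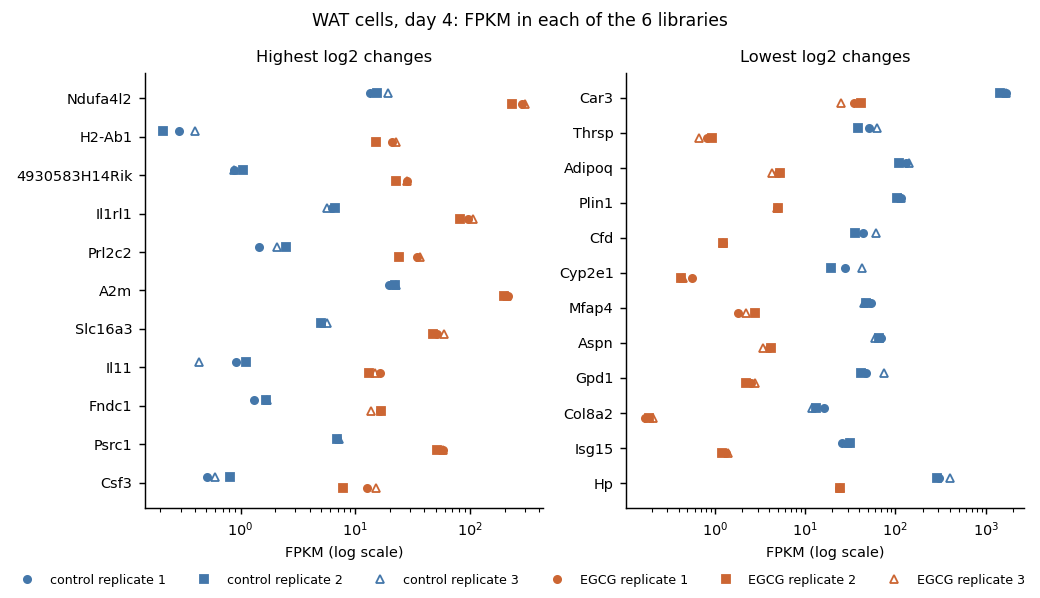
FPKM on a log scale (x axis) of genes ranked among the 12 highest (left) and the 12 lowest (right) in each of the 6 libraries, blue for control and orange for EGCG, with circles, squares and open triangles for replicates 1, 2 and 3. Replicates 1 and 2 share a table and replicate 3 is read against its own control; for A2m, for example, replicates 1 and 2 were at 215 and 197 FPKM with EGCG against 19.5 and 22.3 FPKM, and replicate 3 at 209 against 22.8.

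Among the transcription factors of adipogenesis, 3 of 17 tested members rose, 12 fell and 2 did not pass the test, with a median log2 change of -0.56. Counts of this and of every list below stand beside 34.4% of all genes tested that rose, 19.3% that fell and a median of 0.087. Within the cascade described above, Cebpb and Cebpd rose while Pparg and Cebpa fell. Cebpa, which with Pparg holds the mature state, had 142, 124 and 167 FPKM in the controls and 27.1, 25.6 and 30.5 FPKM with EGCG (log2 change -2.29 ± 0.1001 SE, adjusted p 9.41e-09). Pparg, the master regulator of fat cells, had 57.0, 50.8 and 54.9 FPKM in the controls and 17.8, 18.5 and 14.7 FPKM with EGCG (log2 change -1.52 ± 0.105 SE, adjusted p 3.71e-07). The 3 members that rose were the early factors Cebpb (log2 change 0.79 ± 0.0960 SE, adjusted p 3.43e-05), Cebpd (0.49) and Klf4 (0.51). The lowest was Mlxipl, which encodes the glucose-sensing factor ChREBP, at 12.4, 11.8 and 12.5 FPKM in the controls and 0.430, 0.572 and 0.434 FPKM with EGCG (log2 change -3.13 ± 0.193 SE, adjusted p 1.56e-07). Zfp423, a factor of committed precursors, changed by -1.24 and Srebf1, a regulator of lipogenesis, by -1.14 on the log2 scale, and Stat5a (-0.14) and Stat5b (-0.16) did not pass the test. In bulk RNA, fewer cells of a type and less RNA per cell cannot be told apart.

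Lipid droplet and lipolysis genes were lower as a group: 2 of 18 tested members rose, 13 fell and 3 did not pass the test, with a median log2 change of -1.08. Besides Plin1, the lowest were Cidec, which enlarges lipid droplets (21.9, 18.8 and 26.8 FPKM in the controls and 0.896, 0.860 and 1.02 FPKM with EGCG, log2 change -3.50 ± 0.106 SE, adjusted p 9.66e-10), and the lipases Lipe and Pnpla2. Lipe, hormone-sensitive lipase, had 46.5, 41.5 and 66.0 FPKM in the controls and 3.91, 3.03 and 4.43 FPKM with EGCG. Pnpla2, the lipase ATGL, had 158, 134 and 188 FPKM in the controls and 20.7, 19.9 and 21.1 FPKM with EGCG (log2 change -2.78 ± 0.103 SE, adjusted p 2.82e-09). Droplet coat proteins did not all move one way. Plin2 (log2 change 0.34 ± 0.0665 SE, adjusted p 0.00107) and Plin3 (0.32), which coat droplets in many cell types, rose, while Plin4 (-1.51) fell with Plin1. Abhd5, the co-activator of ATGL, did not pass the test (0.0054).

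For fatty acid uptake and triglyceride synthesis, 0 of 16 tested members rose, 13 fell and 3 did not pass the test, with a median log2 change of -1.89, and 11 members fell at least 2-fold. The lowest after Gpd1 were Agpat2 and Dgat2 of the triglyceride pathway and Acsl1, which activates fatty acids. Fabp4, the main fatty acid binding protein of adipocytes, had 1909, 1669 and 2214 FPKM in the controls and 382, 345 and 349 FPKM with EGCG (log2 change -2.29 ± 0.0983 SE, adjusted p 8.09e-09), so it was still the most abundant of the list with EGCG in replicates 1 and 2 apart from Lpl, the lipase of circulating triglycerides (1636, 1574 and 1551 FPKM in the controls and 663, 752 and 576 FPKM with EGCG, log2 change -1.18 ± 0.0790 SE, adjusted p 2.72e-07). Cd36, a fatty acid transporter, changed by -1.84 on the log2 scale. Pck1 (-0.06), Gyk (-0.003) and Mogat1 (0.012) did not pass the test. In de novo lipogenesis, 0 of 13 tested members rose, 6 fell and 7 did not pass the test, with a median log2 change of -0.0017. The enzymes that fell were Scd1 (555, 503 and 547 FPKM in the controls and 123, 135 and 112 FPKM with EGCG, log2 change -2.03 ± 0.0724 SE, adjusted p 2.22e-09), Me1 (-1.41), Fasn (-1.30), Acaca (-0.93) and Acacb (-0.92), beside Thrsp. The citrate lyase Acly (0.034), Scd2 (0.062) and Elovl6 (0.23) did not pass, and the list's median was 0.003 under quantile normalization and -0.073 to 0.030 with 1 library left out.

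Secreted adipocyte proteins and insulin response genes moved in both directions, with more falls than rises. Of the adipokines, 3 of 14 tested members rose, 8 fell and 3 did not pass the test, with a median log2 change of -0.51. Retn, resistin, had 19.8, 17.5 and 34.4 FPKM in the controls and 3.10, 3.43 and 3.08 FPKM with EGCG (log2 change -2.21 ± 0.133 SE, adjusted p 1.28e-07). Agt, the precursor of angiotensin, changed by -2.63 on the log2 scale. The 3 that rose were Apln, the peptide apelin (26.8, 27.8 and 29.1 FPKM in the controls and 112, 97.0 and 115 FPKM with EGCG, log2 change 1.89 ± 0.105 SE, adjusted p 6.59e-08), Vegfa (log2 change 1.48 ± 0.0441 SE, adjusted p 8.67e-10), which drives vessel growth, and Angptl4 (0.38). Vegfa and Apln are also known to respond to hypoxia. In insulin signalling, 1 of 11 tested members rose, 5 fell and 5 did not pass the test, with a median log2 change of -0.21, which was -0.088 without control replicate 2. Slc2a4, the insulin-regulated glucose transporter GLUT4, had 10.9, 8.55 and 12.98 FPKM in the controls and 1.23, 1.29 and 1.06 FPKM with EGCG (log2 change -2.24 ± 0.170 SE, adjusted p 7.89e-07). Pik3r1 (-1.42) and Irs1 (-0.92) fell too, while the receptors moved differently: Igf1r rose (0.55) and Insr did not pass (0.022). Of the carbonic anhydrases, 2 of 7 tested members rose, 4 fell and 1 did not pass the test, with a median log2 change of -0.65. After Car3, the mitochondrial enzyme Car5b was lowest (26.3, 24.1 and 26.4 FPKM in the controls and 1.85, 1.80 and 1.58 FPKM with EGCG, log2 change -3.21 ± 0.103 SE, adjusted p 1.06e-09), and Car9, a HIF target, rose at levels below 1 FPKM (0.56).

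Mitochondrial genes were lower in nearly every list. In fatty acid oxidation, 0 of 16 tested members rose, 15 fell and 1 did not pass the test, with a median log2 change of -0.38. Eci1 (-1.11), the acyl-CoA dehydrogenases Acadm (-0.95) and Acadl (-0.86) and Etfb (-0.86), which takes up their electrons, fell most. In the citric acid cycle, 0 of 18 tested members rose, 17 fell and 1 did not pass the test, with a median log2 change of -0.52. Pcx, which feeds the cycle with oxaloacetate, had 92.9, 83.2 and 107 FPKM in the controls and 34.7, 35.4 and 35.6 FPKM with EGCG (log2 change -1.30 ± 0.112 SE, adjusted p 2.17e-06). Idh3a, a subunit of isocitrate dehydrogenase, had 55.1, 49.5 and 57.6 FPKM in the controls and 22.0, 23.1 and 20.6 FPKM with EGCG (log2 change -1.17 ± 0.0927 SE, adjusted p 1.06e-06). The falls in these lists were modest, and 2 of the cycle genes reached 2-fold. Of the nuclear genes of oxidative phosphorylation, 1 of 27 tested members rose, 26 fell and 0 did not pass the test, with a median log2 change of -0.50. Cox8b was lowest (-1.30). Cycs, cytochrome c, had 33.3, 31.2 and 39.5 FPKM in the controls and 15.6, 15.7 and 17.2 FPKM with EGCG (log2 change -0.999 ± 0.0703 SE, adjusted p 4.14e-07). The one member that rose was Cox7a1 (0.64), a subunit of muscle and brown fat. Of the mRNAs of the mitochondrial genome, 0 of 13 tested members rose, 7 fell and 6 did not pass the test, with a median log2 change of -0.47, which was -0.24 without control replicate 1. The abundant mt-Nd1 had 2761, 2517 and 2730.3 FPKM in the controls and 1511, 1581 and 1229 FPKM with EGCG (log2 change -0.77 ± 0.0725 SE, adjusted p 4.44e-06), and mt-Co1 changed by -0.013 without passing. mt-Nd4l, the member furthest from 0, did not pass (log2 change -0.93 ± 0.395 SE, adjusted p 0.0656).

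In the breakdown of branched-chain amino acids, 1 of 14 tested members rose, 13 fell and 0 did not pass the test, with a median log2 change of -0.53. Bcat2, the first enzyme of the path, had 65.2, 54.1 and 76.8 FPKM in the controls and 13.5, 13.7 and 14.8 FPKM with EGCG (log2 change -2.05 ± 0.104 SE, adjusted p 3.13e-08), and Pccb (-1.32), Aldh6a1 (-1.28) and Bckdhb (-1.19) followed. Of the thermogenic genes, 4 of 13 tested members rose, 7 fell and 2 did not pass the test, with a median log2 change of -0.73. The coactivators of mitochondrial biogenesis were low in these cells and lower with EGCG: Ppargc1a had 2.94, 2.36 and 2.92 FPKM in the controls and 0.568, 0.468 and 0.442 FPKM with EGCG (log2 change -1.26 ± 0.116 SE, adjusted p 3.76e-06). Ppargc1b had 3.27, 3.69 and 3.09 FPKM in the controls and 0.447, 0.346 and 0.152 FPKM with EGCG (log2 change -1.68 ± 0.106 SE, adjusted p 1.76e-07). Elovl3, a cold-induced elongase (-2.11), and Adrb3, the β3-adrenergic receptor (-1.82), fell as well. Dio2 (0.67), Esrra (0.25) and Prdm16 (0.22) rose with Cox7a1, of which Esrra and Prdm16 lost the call under the median-ratio scaling, and Ucp1, the uncoupling protein, did not pass (-0.15).

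Glycolysis moved against the mitochondrial lists. All 15 tested members rose, 12 of them at least 2-fold, with a median log2 change of 1.40 beside 0.087 over all genes. Hk1, the hexokinase at the entry of the path, had 10.8, 11.1 and 11.6 FPKM in the controls and 48.7, 45.8 and 51.9 FPKM with EGCG (log2 change 2.01 ± 0.0555 SE, adjusted p 5.33e-10). Pfkl, the liver form of phosphofructokinase, had 33.0, 33.1 and 36.8 FPKM in the controls and 138, 127 and 143 FPKM with EGCG (log2 change 1.97 ± 0.0502 SE, adjusted p 3.47e-10). Pkm, pyruvate kinase, had 375, 371 and 407 FPKM in the controls and 1401, 1309 and 1548 FPKM with EGCG (log2 change 1.86 ± 0.0591 SE, adjusted p 1.06e-09). In these 3 enzymes the replicates of a group lay close to each other and, within each table, far from the other group. Pgk1 (1.80), Gpi1 (1.65), Eno1 (1.65) and Gapdh (1.44) rose by similar amounts, and the muscle forms Aldoa (0.62) and Pfkm (0.50) rose least. As given above, the level of Gapdh was far lower in the tested libraries than in replicate 3. The reason was not tested, so its change is less certain.

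**Figure D3:**
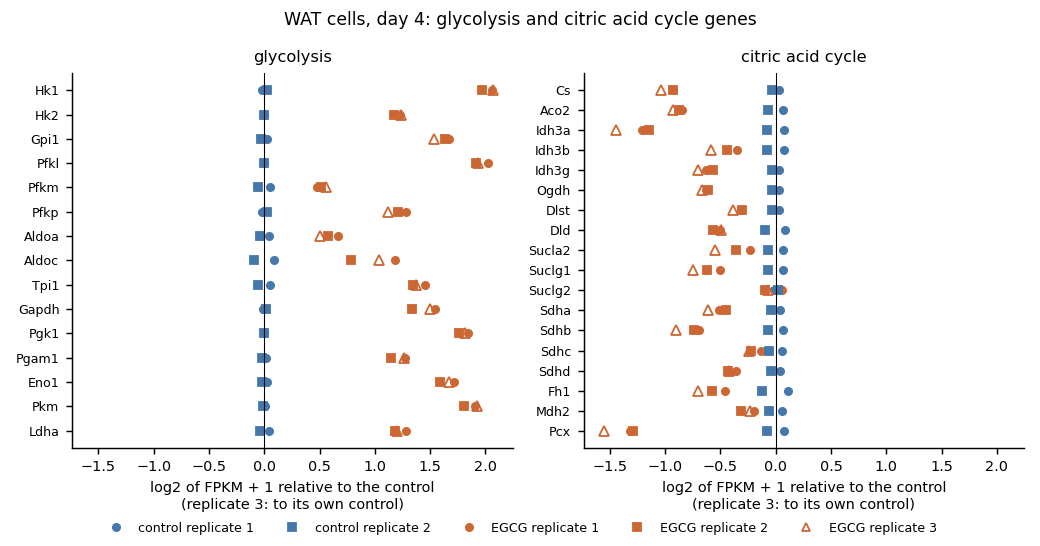
Glycolysis genes (left) and citric acid cycle genes (right) in WAT cells on day 4, as the log2 ratio of FPKM + 1 to the mean of control replicates 1 and 2 (x axis); blue marks controls, orange EGCG, and the open triangle is EGCG replicate 3 against control replicate 3. Every glycolysis gene lies to the right of its controls, from 0.50 for Pfkm to 2.01 for Hk1, and 17 of 18 cycle genes were called lower, down to -1.30 for Pcx.

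Genes known as HIF targets rose together with glycolysis, and some stand on both lists. Of 28 tested members, 26 rose, none fell and 2 did not pass the test, with 20 at least 2-fold higher and a median log2 change of 1.46. Besides Ndufa4l2 and Slc16a3, the list held Egln3, a prolyl hydroxylase that is itself induced by HIF (1.93, 1.61 and 2.02 FPKM in the controls and 15.6, 13.1 and 15.8 FPKM with EGCG, log2 change 2.47 ± 0.0929 SE, adjusted p 3.19e-09). Hilpda, a lipid droplet protein that restrains ATGL, had 19.7, 20.1 and 23.7 FPKM in the controls and 108, 94.1 and 115 FPKM with EGCG (log2 change 2.28 ± 0.0575 SE, adjusted p 3.47e-10). Slc2a1, the glucose transporter GLUT1, had 30.1, 30.4 and 36.0 FPKM in the controls and 152, 138 and 187 FPKM with EGCG (log2 change 2.22 ± 0.104 SE, adjusted p 1.64e-08), so GLUT1 rose where GLUT4 fell. Pdk1, a kinase that inhibits pyruvate dehydrogenase, had 5.97, 5.94 and 5.99 FPKM in the controls and 27.4, 26.2 and 26.1 FPKM with EGCG (log2 change 2.000 ± 0.0689 SE, adjusted p 1.64e-09). Ddit4 (2.13), the mitophagy receptor Bnip3 (1.92) and Egln1 (1.61) rose as well, and Pfkfb3 (0.29) and Plod2 (0.36) did not pass. The counts for glycolysis and HIF targets were the same under the median-ratio scaling.

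Promoter windows of 300 bases, 250 before and 50 after an annotated start (RefSeq, build GRCm38.p6, not the build of the expression tables), were searched on both strands for the letters ACGTG and GCGTG, the forms of the core to which HIF binds. Since so many members of this list moved together, windows are shown for the called HIF targets of highest log2 change that had a window, Slc16a3 (chr11:120948817-120949116, plus strand) and Egln3 (chr12:54203825-54204124, minus strand), from 5′ to 3′ with these letters in capitals:
Slc16a3: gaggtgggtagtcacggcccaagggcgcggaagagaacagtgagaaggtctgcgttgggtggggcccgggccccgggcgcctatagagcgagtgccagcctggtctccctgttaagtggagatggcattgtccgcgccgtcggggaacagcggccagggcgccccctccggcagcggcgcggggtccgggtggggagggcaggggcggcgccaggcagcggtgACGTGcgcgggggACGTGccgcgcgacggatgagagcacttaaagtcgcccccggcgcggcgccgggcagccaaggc
Egln3: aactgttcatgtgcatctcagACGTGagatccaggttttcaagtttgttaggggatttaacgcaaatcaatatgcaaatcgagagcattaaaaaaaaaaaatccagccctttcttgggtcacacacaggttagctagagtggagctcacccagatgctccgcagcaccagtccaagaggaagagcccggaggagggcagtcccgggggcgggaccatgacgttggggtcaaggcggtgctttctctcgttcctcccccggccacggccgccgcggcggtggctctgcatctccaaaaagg
Ndufa4l2 had no window. Slc16a3 held ACGTG 2 times close to the start, at -27 to -23 and -14 to -10, and Egln3 held it at -229 to -225. Over all 32851 windows, 19.6% held ACGTG and 32.4% held GCGTG. Of 31 windows of 22 HIF targets, 20 held ACGTG (64.5%) and 18 held GCGTG (58.1%). In 27 windows of the NRF2 targets described next, 6 held ACGTG (22.2%) and 16 held GCGTG (59.3%), so the share with GCGTG was alike in both lists. The windows of the list were also richer in G and C, with a median of 65.3% against 52.7% over all windows, and both motifs contain a CG pair. The list was made of genes already known as HIF targets, so a high share of the HIF core in it says nothing about EGCG. Windows of the same gene are not separate cases. A match is a description of the letters and not a binding site.

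NRF2 targets rose in most cases. Of the list, 17 of 25 tested members rose, 2 fell and 6 did not pass the test, with a median log2 change of 0.64. Ephx1, an epoxide hydrolase, had 14.5, 13.2 and 14.1 FPKM in the controls and 101, 83.5 and 96.4 FPKM with EGCG (log2 change 2.65 ± 0.0884 SE, adjusted p 1.30e-09). Hmox1, which breaks down heme, had 203, 192 and 194 FPKM in the controls and 1155, 1082 and 1236 FPKM with EGCG (log2 change 2.49 ± 0.0784 SE, adjusted p 1.06e-09). Gclc, the rate-limiting enzyme of glutathione synthesis, had 17.1, 17.6 and 15.6 FPKM in the controls and 70.7, 61.7 and 58.9 FPKM with EGCG (log2 change 1.87 ± 0.0961 SE, adjusted p 3.43e-08). In each of these genes EGCG was far above control within each table. Srxn1 (22.0, 20.9 and 20.6 FPKM in the controls and 71.7, 66.3 and 70.8 FPKM with EGCG), which repairs peroxiredoxins, Nqo1 (log2 change 1.10 ± 0.103 SE, adjusted p 4.19e-06), a quinone reductase, Txnrd1 (0.95) and the cystine importer Slc7a11 (0.99) rose too, as did Nfe2l2 itself, the gene of NRF2 (0.84). Its inhibitor Keap1 did not pass (0.032). The members that fell were Me1, a lipogenic enzyme that makes NADPH (-1.41) and Taldo1 of the pentose phosphate path (-0.63), and G6pdx (-0.16) and Tkt (-0.0047) did not pass.

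The windows of Ephx1 (chr1:181017520-181017819, minus strand) and Srxn1 (chr2:152105274-152105573, plus strand), the NRF2 targets of highest log2 change that had one, are given in the same way with the antioxidant response element in capitals, searched as TGACNNNGC and TGAGTCAGC on both strands:
Ephx1: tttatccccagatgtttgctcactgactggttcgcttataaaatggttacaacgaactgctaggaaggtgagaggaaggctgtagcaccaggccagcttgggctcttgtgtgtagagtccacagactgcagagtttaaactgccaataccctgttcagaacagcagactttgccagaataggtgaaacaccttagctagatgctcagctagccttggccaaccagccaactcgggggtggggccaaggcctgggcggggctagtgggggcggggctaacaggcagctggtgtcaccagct
Srxn1: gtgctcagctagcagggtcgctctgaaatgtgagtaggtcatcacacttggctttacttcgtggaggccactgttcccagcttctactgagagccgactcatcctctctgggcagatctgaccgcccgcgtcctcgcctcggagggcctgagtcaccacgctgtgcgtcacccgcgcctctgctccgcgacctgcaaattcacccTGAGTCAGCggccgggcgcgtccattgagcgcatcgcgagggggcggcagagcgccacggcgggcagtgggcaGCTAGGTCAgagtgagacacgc
Srxn1 held TGAGTCAGC at -45 to -37 and the reverse of the other form at 29 to 37 after the start, and the window of Ephx1 held neither. Hmox1 and Gclc had no window. TGACNNNGC was found in 12.4% of all windows and in 8 of 27 windows of 20 NRF2 targets (29.6%), and TGAGTCAGC in 0.414% of all windows and in 2 of the 27 (7.41%). This list was made of genes already known as NRF2 targets, so these shares say nothing about EGCG. Its windows were also richer in G and C, with a median of 58.7% against 52.7% over all windows.

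Antioxidant enzymes outside the NRF2 list were mixed: 8 of 19 tested members rose, 6 fell and 5 did not pass the test, with a median log2 change of 0.066, which became -0.07 under the median-ratio scaling, 0.0052 without EGCG replicate 1 and 0.16 without EGCG replicate 2. The metallothioneins, small proteins that bind zinc and copper and are induced by metals, rose from an already high level. Mt2 had 2077, 1953 and 2607 FPKM in the controls and 5879, 5021 and 6905 FPKM with EGCG (log2 change 1.43 ± 0.144 SE, adjusted p 7.34e-06). Mt1 had 1483, 1435 and 1981 FPKM in the controls and 3699.5, 3219 and 4321 FPKM with EGCG (log2 change 1.24 ± 0.119 SE, adjusted p 5.20e-06). Selenbp1, a selenium-binding methanethiol oxidase, changed by 1.75. Catalase (Cat, -0.97), Gpx3 (-0.76) and Sod1 (-0.48) fell, Sod2 rose (0.40) and Gpx4 did not pass (-0.024). Of the genes of iron handling, 7 of 15 rose and 7 fell. The importers and stores rose: Slc39a14 had 44.1, 49.0 and 41.6 FPKM in the controls and 151, 142 and 148 FPKM with EGCG (log2 change 1.63 ± 0.133 SE, adjusted p 1.36e-06). Tfrc, the transferrin receptor, had 20.3, 18.7 and 17.6 FPKM in the controls and 35.2, 32.2 and 31.9 FPKM with EGCG (log2 change 0.76 ± 0.0729 SE, adjusted p 5.21e-06). The ferritin chains Fth1 (1.01) and Ftl1 (0.84), which the NRF2 list also holds, were higher. Slc40a1, the iron exporter ferroportin, had 16.2, 15.1 and 14.04 FPKM in the controls and 4.19, 4.201 and 4.16 FPKM with EGCG (log2 change -1.68 ± 0.131 SE, adjusted p 9.86e-07), and Aco1, which encodes the iron sensor IRP1, fell (-0.70).

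Stress pathways differed from one another. Of the ATF4 and integrated stress response list, 10 of 22 tested members rose, 2 fell and 10 did not pass the test, with a median log2 change of 0.23 (0.15 without EGCG replicate 1), and 8 rose and 6 fell under the median-ratio scaling. Gdf15, a stress hormone, had 4.74, 4.80 and 5.45 FPKM in the controls and 20.02, 16.5 and 24.1 FPKM with EGCG (log2 change 1.73 ± 0.187 SE, adjusted p 1.34e-05), and Sesn2 (0.92) and Atf3 (0.81) rose, whereas Fgf21 fell (log2 change -1.09 ± 0.260 SE, adjusted p 0.00399). Core members such as Atf4 (0.19), Ddit3 (0.35), Psat1 (-0.039) and Chac1 (-0.065) did not pass. Of the chaperones of the endoplasmic reticulum, 1 of 16 tested members rose, 10 fell and 5 did not pass the test, with a median log2 change of -0.28. Hspa5, the chaperone BiP, had 607, 572 and 601 FPKM in the controls and 322, 331 and 339.7 FPKM with EGCG (log2 change -0.85 ± 0.0938 SE, adjusted p 1.58e-05), and Manf (-0.65) and Pdia6 (-0.49) were lower with it. Of the heat shock proteins, 7 of 14 tested members rose, 5 fell and 2 did not pass the test, with a median log2 change of 0.15 (0.091 without EGCG replicate 1). The small chaperone Cryab had 15.4, 17.4 and 18.2 FPKM in the controls and 72.9, 64.7 and 90.2 FPKM with EGCG (log2 change 2.002 ± 0.181 SE, adjusted p 3.28e-06), and 5 rose and 5 fell under the median-ratio scaling. The mitochondrial chaperones Hspd1 (-0.77) and Hspe1 (-0.62) and the cytosolic Hspa8 (-0.70) fell.

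Interferon-responsive genes were lower. Of the MHC class I and interferon list, 1 of 17 tested members rose, 14 fell and 2 did not pass the test, with a median log2 change of -1.10, and 9 fell at least 2-fold. After Isg15 came Oasl2 (6.30, 8.18 and 7.38 FPKM in the controls and 0.269, 0.350 and 0.218 FPKM with EGCG, log2 change -2.64 ± 0.194 SE, adjusted p 5.80e-07), Ifit1 (5.92, 6.94 and 7.74 FPKM in the controls and 0.196, 0.339 and 0.385 FPKM with EGCG, log2 change -2.55 ± 0.330 SE, adjusted p 5.47e-05) and Irf7, a transcription factor that amplifies the response (7.38, 9.56 and 7.55 FPKM in the controls and 0.780, 0.623 and 0.972 FPKM with EGCG, log2 change -2.47 ± 0.200 SE, adjusted p 1.33e-06). All of these were present in each control and near the bottom of the scale in each EGCG library. Stat2 (-0.97), which carries the signal of type I interferon, fell less, Tap1 rose (0.40), and H2-K1 (0.017) and Irf1 (-0.027) did not pass. Psmb9 was listed at 0 in every library.

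Of the MHC class II list, 5 of 6 tested members rose with H2-Ab1 among them, but its closest partners were near the floor. The other chain of the same molecule, H2-Aa, was listed at 0 in all 6 libraries, and its gene overlaps H2-Ab1. Cd74, the invariant chain that class II molecules need, had 0.124, 0.265 and 0.519 FPKM in the controls and 0.0965, 0.0761 and 0.0907 FPKM with EGCG. Ciita, the master regulator of class II genes, had 0.136, 0.212 and 0.0692 FPKM in the controls and 0.116, 0.211 and 0.0564 FPKM with EGCG. Neither reached the filter. H2-Eb1 had 0.198, 0.0594 and 0.155 FPKM in the controls and 0.404, 0.328 and 0.290 FPKM with EGCG and did not pass (log2 change 0.28 ± 0.122 SE, adjusted p 0.0755). The other members that rose were the protease Ctss (log2 change 1.31 ± 0.104 SE, adjusted p 1.13e-06), the thiol reductase Ifi30 (0.90), H2-DMb1 (0.47) and H2-DMa (0.37). Macrophage markers were also higher and are given with the other cell types.

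Of the chemokines and inflammation genes, 5 of 18 tested members rose, 4 fell and 9 did not pass the test, with a median log2 change of 0.14, shares close to those of all genes (34.4% and 19.3%). Besides the receptor Il1rl1, its ligand Il33 rose (25.8, 28.1 and 27.3 FPKM in the controls and 57.2, 50.0 and 53.4 FPKM with EGCG, log2 change 0.97 ± 0.256 SE, adjusted p 0.00759), as did the adhesion molecule Icam1 (6.21, 7.38 and 8.07 FPKM in the controls and 20.2, 20.02 and 25.8 FPKM with EGCG, log2 change 1.44 ± 0.115 SE, adjusted p 1.18e-06) and Il6 (0.55). Ccl11, the chemokine eotaxin, had 60.4, 58.7 and 60.6 FPKM in the controls and 19.8, 18.8 and 19.1 FPKM with EGCG (log2 change -1.58 ± 0.179 SE, adjusted p 1.97e-05). The interferon-inducible Cxcl10 (-1.87) and Vcam1 (-0.84) fell with it. Ccl2 (-0.38), Cxcl1 (0.35) and Ptgs2 (0.64) did not pass. Of the insulin-like growth factor genes, 2 of 10 tested members rose, 4 fell and 4 did not pass the test, with a median log2 change of -0.22. Igf1 had 74.7, 76.5 and 61.0 FPKM in the controls and 10.6, 15.3 and 9.28 FPKM with EGCG (log2 change -2.47 ± 0.192 SE, adjusted p 9.39e-07). Igf2 fell (-1.01). Igfbp3, the main carrier of these factors in serum, had 187, 191 and 202 FPKM in the controls and 519, 443 and 533 FPKM with EGCG (log2 change 1.34 ± 0.154 SE, adjusted p 2.18e-05). Igfbp2 (-0.89) depended on 1 library, with -0.57 without EGCG replicate 2.

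Dexamethasone was in the medium of both groups, and of the glucocorticoid-responsive genes 3 of 12 tested members rose, 5 fell and 4 did not pass the test, with a median log2 change of -0.19. Hsd11b1, which regenerates active glucocorticoid, had 17.8, 18.4 and 18.2 FPKM in the controls and 45.1, 40.9 and 37.7 FPKM with EGCG (log2 change 1.20 ± 0.219 SE, adjusted p 0.000678), while Fkbp5 (-0.71), Sgk1 (-0.83) and Glul (-0.94) fell and Tsc22d3 (-0.14) and the receptor Nr3c1 (0.078) did not pass. The lowest member of the glucocorticoid list, at -1.72 on the log2 scale, was the 1 that fell at least 2-fold. In cholesterol synthesis the changes were small. The list had 9 of 16 members higher and 3 lower, but 6 and 6 under the median-ratio scaling. Fdft1, the squalene synthase, changed by 0.59 and Fdps by -0.48 on the log2 scale, so members of 1 path moved in both directions.

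**Figure D4:**
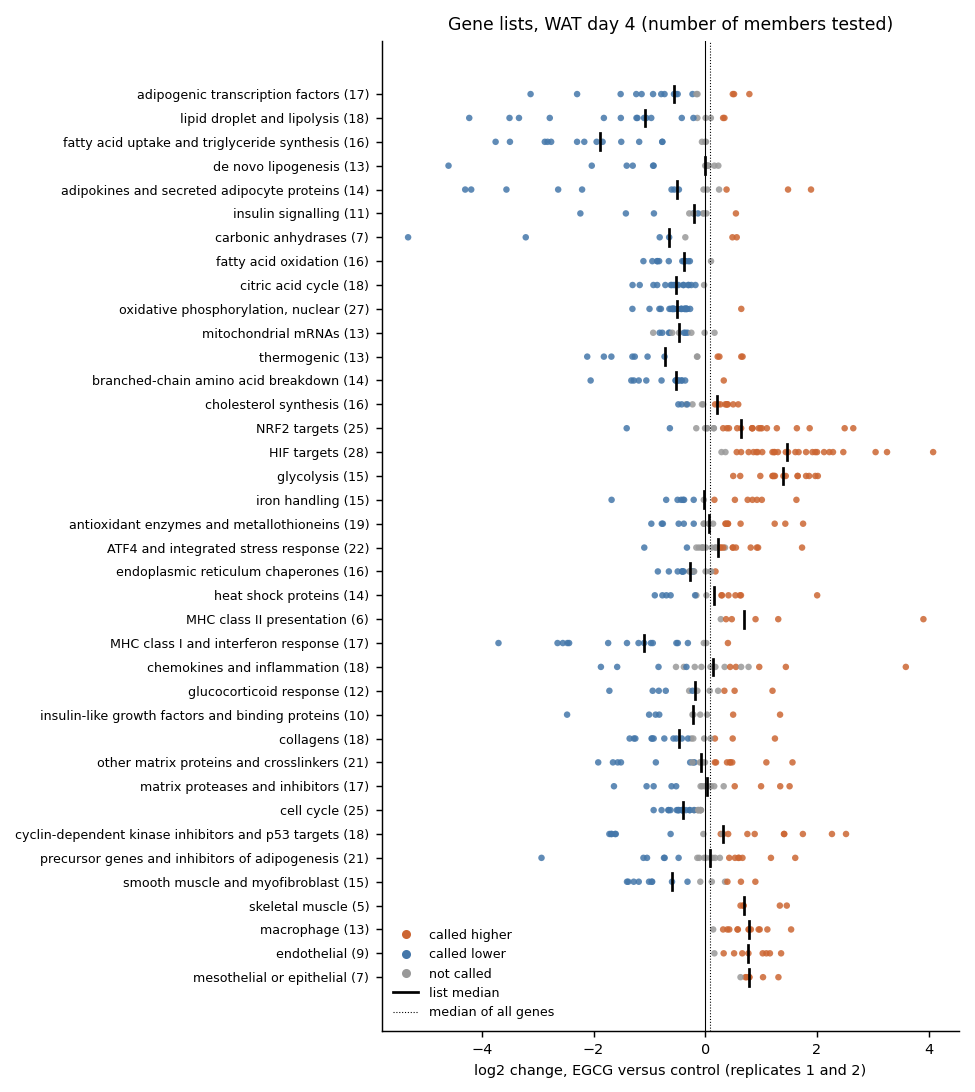
Log2 change with EGCG in WAT cells on day 4 (x axis) for the tested members of each gene list with at least 5 tested members, 1 point a gene, orange for called higher, blue for called lower and grey for not called; the black bar is the list's median and the dotted line the median of all 14095 genes at 0.087. The lists of glycolysis (1.40) and HIF targets (1.46) lie furthest to the right and that of fatty acid uptake and triglyceride synthesis (-1.89) furthest to the left.

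Matrix genes moved in both directions. Of the collagens, 3 of 18 tested members rose, 11 fell and 4 did not pass the test, with a median log2 change of -0.47. Col1a2, a chain of the main fibrillar collagen, had 2274, 2321 and 2243 FPKM in the controls and 871, 1030.0 and 914 FPKM with EGCG (log2 change -1.28 ± 0.0909 SE, adjusted p 4.55e-07), and Col1a1 (-0.92), Col15a1 (-1.25) and the 3 tested chains of collagen VI fell with it. Col12a1, which sits on fibrils, had 58.1, 70.5 and 48.6 FPKM in the controls and 154, 152 and 133 FPKM with EGCG (log2 change 1.25 ± 0.102 SE, adjusted p 1.45e-06), and Col3a1 did not pass (-0.25). Of the other matrix proteins, 8 of 21 rose and 8 fell, and 5 and 11 under the median-ratio scaling. Within the fibulins the direction split: Fbln2 had 341, 355 and 301 FPKM in the controls and 1062, 996 and 1143 FPKM with EGCG (log2 change 1.56 ± 0.0814 SE, adjusted p 3.91e-08). Fbln1 had 171, 173 and 209 FPKM in the controls and 52.6, 62.6 and 59.4 FPKM with EGCG (log2 change -1.57 ± 0.120 SE, adjusted p 8.35e-07). Elastin (Eln, -1.65), Fmod (-1.92) and Lum (-1.51) fell. Of the proteases and their inhibitors, 4 of 17 rose, with Mmp3 (294, 301 and 311 FPKM in the controls and 813, 882 and 931 FPKM with EGCG, log2 change 1.51 ± 0.208 SE, adjusted p 8.93e-05) and its inhibitor Timp1 (1.34) both among them, and 5 fell, Adamts12 the most (-1.63). Contractile genes of smooth muscle and myofibroblasts were mostly lower, with 9 of 15 tested members down and 3 up and a summed level in FPKM of 955, 887 and 877 in the controls and 555, 550.0 and 567 with EGCG. Acta2, smooth muscle actin, changed by -1.19, and Cyr61, a target of YAP, by -1.38.

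Cell cycle genes were lower while inhibitors of the cycle split. Of the proliferation genes, 0 of 25 tested members rose, 17 fell and 8 did not pass the test, with a median log2 change of -0.40. Plk1, a mitotic kinase, had 8.98, 9.77 and 9.33 FPKM in the controls and 4.38, 4.54 and 4.68 FPKM with EGCG (log2 change -0.92 ± 0.119 SE, adjusted p 5.33e-05), and Ccnb2 (-0.78), Cdk1 (-0.66) and Ccnb1 (-0.65) followed, while Pcna (-0.13) and Rrm2 (-0.082) did not pass. None reached 2-fold. Several known targets of p53 rose by more. Mdm2, which marks p53 for degradation, had 30.1, 29.5 and 27.9 FPKM in the controls and 192, 160.4 and 181 FPKM with EGCG (log2 change 2.52 ± 0.0812 SE, adjusted p 1.09e-09). Cdkn1a, the cycle inhibitor p21, had 43.9, 40.1 and 46.6 FPKM in the controls and 218, 194 and 218 FPKM with EGCG (log2 change 2.27 ± 0.0603 SE, adjusted p 4.32e-10). Ccng1 had 47.9, 44.5 and 47.0 FPKM in the controls and 163, 152 and 154 FPKM with EGCG (log2 change 1.75 ± 0.0630 SE, adjusted p 2.47e-09). Bbc3, the death factor PUMA, had 5.40, 6.11 and 5.99 FPKM in the controls and 18.6, 15.5 and 18.2 FPKM with EGCG (log2 change 1.41 ± 0.0838 SE, adjusted p 1.09e-07). In contrast, the inhibitors Cdkn1c (46.8, 46.7 and 53.6 FPKM in the controls and 12.01, 15.2 and 12.7 FPKM with EGCG, log2 change -1.72 ± 0.151 SE, adjusted p 2.52e-06), Cdkn2a (-1.69), Cdkn2b (-1.61) and Cdkn2c (-1.60) fell. Over the whole list of inhibitors and p53 targets, 10 of 18 tested members rose and 6 fell. Sesn1 (-0.62) and Gadd45g (-1.67) fell, Gadd45a (0.31) did not pass, and Ccnd1, cyclin D1, rose (1.41). The gene of p53 itself, Trp53, changed little (log2 change 0.28 ± 0.0628 SE, adjusted p 0.00304) and lost its call under the median-ratio scaling.

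Genes of precursors did not move as a block, with 7 of 21 tested members higher and 6 lower, beside 34.4% and 19.3% of all genes, and 7 and 8 under the median-ratio scaling. Pdgfra, a general marker of precursors, had 125, 130.3 and 117 FPKM in the controls and 121, 131 and 113 FPKM with EGCG and did not pass (log2 change -0.021 ± 0.0855 SE, adjusted p 0.853). Dlk1, which holds back adipogenesis, had 52.2, 51.6 and 60.9 FPKM in the controls and 4.55, 7.66 and 6.06 FPKM with EGCG (log2 change -2.93 ± 0.195 SE, adjusted p 2.63e-07). Ly6a, the surface marker Sca-1, had 88.9, 113 and 111 FPKM in the controls and 315, 302 and 286 FPKM with EGCG (log2 change 1.61 ± 0.160 SE, adjusted p 6.61e-06), and Cd24a changed by 1.17. Thus markers and inhibitors of the precursor state were found on both sides.

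Markers of other cell types that an SVF culture can hold moved with EGCG, and their part in the results above was not tested. Of 13 tested macrophage markers, 12 rose, and the summed level of the list in FPKM was 97.3, 91.3 and 101 in the controls and 232, 230.4 and 215 with EGCG. Lyz2, lysozyme, carried most of it (57.7, 53.2 and 62.2 FPKM in the controls and 164, 160.5 and 152 FPKM with EGCG, log2 change 1.54 ± 0.0715 SE, adjusted p 1.54e-08). Csf1r rose (0.39) and Cd68 did not pass (0.14), while the leukocyte marker Ptprc stayed at 0.0570, 0.0361 and 0.0734 FPKM in the controls and 0.0624, 0.151 and 0.103 FPKM with EGCG. Of the B or dendritic cell markers, Ms4a1, Itgax and Flt3 were below 0.1 FPKM in every library, and Zbtb46, the member tested, fell (-0.66). The list summed to 5.58, 5.39 and 4.81 in the controls and 2.99, 3.50 and 2.46 with EGCG. Endothelial markers rose in 8 of 9 cases, with Pecam1 at 5.02, 5.27 and 4.79 FPKM in the controls and 12.3, 13.04 and 12.4 FPKM with EGCG (log2 change 1.16 ± 0.0989 SE, adjusted p 2.01e-06) and a summed level of 28.4, 29.2 and 37.2 in the controls and 61.5, 62.1 and 66.6 with EGCG, and Kdr did not pass (0.16). Within each table the macrophage and endothelial sums were higher and the B or dendritic cell sum lower with EGCG. Under the median-ratio scaling 12 macrophage and 7 endothelial markers were called higher, and with quantile normalization 9 and 7.

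Mesothelial or epithelial markers rose in 6 of 7 cases, with a summed level of 48.4, 38.9 and 83.8 in the controls and 123, 63.0 and 197 with EGCG, and here 1 library weighed heavily. Krt8 had 12.9, 11.6 and 13.99 FPKM in the controls and 30.0, 15.8 and 31.0 FPKM with EGCG (log2 change 0.79 ± 0.264 SE, adjusted p 0.0249), so EGCG replicate 2 lay close to the controls. Without EGCG replicate 1 the log2 change of Krt8 was 0.35 and that of Krt14 was 0.25, and neither was called, while without EGCG replicate 2 they were 1.23 and 1.32. Krt18 was 0.53 without EGCG replicate 1. The markers of this list called higher numbered 4 under the median-ratio scaling and 5 with quantile normalization. Upk3b was listed at 0 in every library and Wt1 stayed under 0.4 FPKM. Of the skeletal muscle genes all 5 tested rose. Myog, a myogenic factor, had 2.15, 1.86 and 2.60 FPKM in the controls and 7.17, 7.31 and 6.26 FPKM with EGCG (log2 change 1.46 ± 0.236 SE, adjusted p 0.000295), and the summed level was 73.3, 73.9 and 78.7 in the controls and 127, 131 and 125 with EGCG, with Myod1 and Ckm not reaching the filter.

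Genes among the 6 highest and 6 lowest were then set against the same contrast in BAT cells on day 4 and in WAT cells on day 8. These genes were ranked on the WAT day 4 change, which enters both differences, so the values describe them and are no independent test. The EGCG effect differed between depots for 10 of these 11 genes at an adjusted p of 0.05 (28.1% of all 14095 genes did) and between days for 9 of the 11 (49.4% of all genes). The contrasts of WAT day 4, BAT day 4 and WAT day 8 share no library.

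Ndufa4l2 had a log2 change of 1.76 ± 0.155 SE in BAT on day 4 (difference WAT minus BAT 2.32, adjusted p 2.33e-05) and of 0.022 ± 0.155 SE in WAT on day 8 (difference day 8 minus day 4 -4.05, adjusted p 1.75e-07). On day 8 its level was 175 ± 7.41 FPKM (SD, n = 2) in WAT controls and 178 ± 1.59 FPKM with EGCG, so control and treated cells were level. Prl2c2 was 0.49 ± 0.193 SE in BAT on day 4 (difference WAT minus BAT 2.86, adjusted p 2.44e-05), where BAT controls already held 42.2 ± 5.48 FPKM, and its level in WAT on day 8 was 0.0856 ± 0.0797 FPKM (SD, n = 2) in controls and 14.5 ± 1.03 FPKM with EGCG. With controls that low, the difference between its changes on days 8 and 4 rested on the pseudocount: it was 0.48 (adjusted p 0.166) with 1, 2.51 (adjusted p 0.00216) with 0.1 and 3.47 (adjusted p 0.0397) with voom, and it was also called without control replicate 1 (0.74, adjusted p 0.0437). H2-Ab1 was 1.41 ± 0.287 SE in BAT on day 4 and 1.04 ± 0.287 SE in WAT on day 8, and 4930583H14Rik showed 1.63 ± 0.260 SE in BAT on day 4 and 0.92 ± 0.260 SE in WAT on day 8. Il1rl1 was 4.11 ± 0.191 SE in WAT on day 8 (difference day 8 minus day 4 0.52, adjusted p 0.133, but 1.47 with adjusted p 0.0121 at a pseudocount of 0.1 and 1.61 with adjusted p 0.00636 with voom) and differed modestly between depots (difference WAT minus BAT 0.99, adjusted p 0.0186), a call lost in 4 alternatives with values of 0.88 to 0.99.

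The lowest genes fell in BAT on day 4 as well, and on day 8 their changes in WAT were larger than on day 4. Car3 was -4.20 ± 0.163 SE in BAT on day 4 (difference WAT minus BAT -1.12, adjusted p 0.0042) and -8.17 ± 0.163 SE in WAT on day 8 (difference day 8 minus day 4 -2.85, adjusted p 2.93e-06). Adipoq was -2.17 ± 0.0948 SE in BAT on day 4 (difference WAT minus BAT -2.13, adjusted p 1.46e-06), with 67.8 ± 2.08 FPKM left in BAT cells with EGCG, and -6.09 ± 0.0948 SE in WAT on day 8. Plin1 was -2.24 ± 0.139 SE in BAT on day 4 (difference WAT minus BAT -1.99, adjusted p 3.27e-05) and -6.65 ± 0.139 SE in WAT on day 8 (difference day 8 minus day 4 -2.42, adjusted p 2.95e-06). Cfd was -2.81 ± 0.130 SE in BAT on day 4 and -8.22 ± 0.130 SE in WAT on day 8 (difference day 8 minus day 4 -4.03, adjusted p 4.45e-08), where WAT controls rose to 592 ± 119 FPKM. For Thrsp the difference between depots did not pass (difference WAT minus BAT -1.05, adjusted p 0.0957). Cyp2e1 was -2.09 ± 0.330 SE in BAT on day 4 (difference WAT minus BAT -1.93, adjusted p 0.0102) and -5.54 ± 0.330 SE in WAT on day 8 (difference day 8 minus day 4 -1.52, adjusted p 0.0181), and its control values spread widely.

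**Figure D5:**
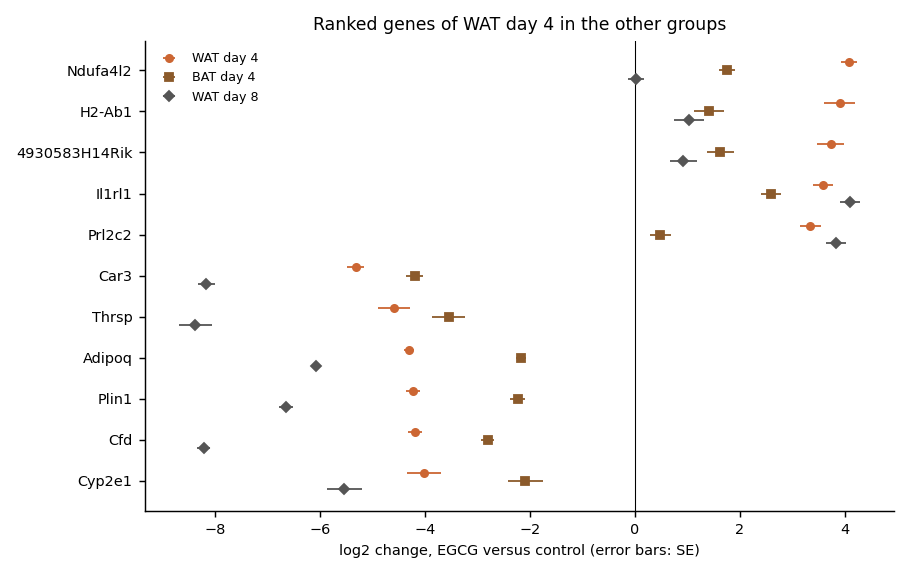
Log2 change with EGCG (x axis) of 11 genes among the 6 highest and 6 lowest of WAT day 4 in WAT cells on day 4 (orange circles), BAT cells on day 4 (brown squares) and WAT cells on day 8 (grey diamonds); error bars are SE from limma on replicates 1 and 2. Ndufa4l2 falls from 4.08 on day 4 to 0.022 on day 8 in WAT cells, while Cfd goes from -4.19 to -8.22.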

How the data were processed

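Total RNA of 24 libraries had been sequenced, and gene values were used as deposited. The tables deposited by the authors hold FPKM over 37310 genes. Replicates 1 and 2 (16 libraries) are in 1 table and replicate 3 (8 libraries) is in another. All genes matched GENCODE vM1 on mouse build NCBIM37 by their identifier without its version. Coordinates of genes in the text are of that build. The submitters' processing notes name FastQC 0.11.9, HISAT2 2.2.0 and HTSeq 0.11; settings are not given in the sources used here. FPKM times gene length gave whole reads for 100% of values, within 0.01 read.

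The test was limma 3.58.1 (R 4.3.3) on log2(FPKM + 1), with 8 group means fitted to the 16 libraries, an intensity trend, two-sided p-values and Benjamini-Hochberg adjustment over 14095 genes with at least 1 FPKM in at least 2 libraries. All adjusted p-values are from this fit, or from its contrasts between depots and days. Replicate 3 gave direction only. Ranked genes were called, reached a mean of 5 FPKM in the higher group and kept their direction in replicate 3, and the 12 largest changes a direction were taken, of which 23 genes are named; some results are not reported here; for lists, up to 4 largest changes and members that define the list are named, and others were chosen after their values were seen. Members and lists (39 lists, 626 of 627 entries matched) were chosen with earlier results of these data known. The fit was tested on simulated data with few changed genes and a fixed spread, which checks the code and not the error rate of the calls made here. Figures and tables were made with pandas 2.3.3 and numpy 2.4.6. The number of reads limits precision only for counting error: 3 reads, the floor used for a count of 0, are worth 0.0292 to 0.0350 FPKM on a gene of 2 kb in replicates 1 and 2 of WAT day 4. In all, 14 alternatives were planned, and 1 was added after seeing the data.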

Additional observations from a re-analysis of the deposited data

Results flagged for a closer look

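Of the 11 genes compared between depots and days, those below are named because the test of the difference itself passed an adjusted p of 0.05 in limma. They had been ranked on the WAT day 4 change, which is part of both differences.

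For the EGCG effect on day 4, the WAT minus BAT difference on the log2 scale was 2.32 for Ndufa4l2, 2.49 for H2-Ab1, 2.10 for 4930583H14Rik, 0.99 for Il1rl1 and 2.86 for Prl2c2. It was -1.12 for Car3, -2.13 for Adipoq, -1.99 for Plin1, -1.38 for Cfd and -1.93 for Cyp2e1. Each of these effects was thus larger in WAT than in BAT cells.

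For the EGCG effect in WAT cells, the day 8 minus day 4 difference was -4.05 for Ndufa4l2, -2.87 for H2-Ab1 and -2.81 for 4930583H14Rik, which were the rises that were smaller on day 8. It was -2.85 for Car3, -3.78 for Thrsp, -1.79 for Adipoq, -2.42 for Plin1, -4.03 for Cfd and -1.52 for Cyp2e1, which were the falls that were larger on day 8.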

How the results depend on the processing

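The 23 ranked genes stayed called in the same direction under all 15 alternatives, and no called value reversed. Their order changed with the pseudocount. Among the 137 list members with the largest changes in their lists, 19 values lost their call. These were values of Krt8, Krt14, Fdps, Insig1, Pdia6, Pdia4, H2-DMb1 and Mylpf, and mt-Nd4l gained a call in 7 alternatives. List members with smaller changes were left out of this count. Esrra, Prdm16 and Trp53 are examples of such members that lost their call under the median-ratio scaling. With both tables and a table term, 3081 genes were called, 627 for the depot difference and 2425 for the day difference. Replicate 3 of the EGCG group of WAT day 8 held 61.0% of its reads on 5 genes; without it, an alternative chosen after seeing the data, these counts were 8467, 5167 and 7542. Genes called with a 2-fold change numbered 1742 with a pseudocount of 0.1 and 1875 with voom on the recovered reads. Leaving out 1 library gave 6159 to 6639 called genes, 903 to 1064 with a 2-fold change, 2905 to 3405 for the depot difference and 6120 to 6236 for the day difference.

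With a replicate block 7505 genes were called, 7417 of them shared in direction with the 7567. Same-numbered WAT day 4 libraries deviated together with a correlation of 0.081 across genes, the highest of all pairs of groups. With 2 replicates a group this low value cannot exclude pairing. The main fit did not take the numbers to pair samples. Calls for the depot difference were lost for Il1rl1 in 4 alternatives and for Cyp2e1 with voom; the day difference of Cyp2e1 was lost in 4 alternatives and that of Thrsp with voom. The depot difference of Thrsp was called in 3 alternatives, and day differences of Prl2c2 and Il1rl1 in 3 and 2. With 2 replicates a group in the test, small changes rest on few samples.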
